A study of Homo sapiens with 12 samples.

Results

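The aldo-keto reductases are NADPH-dependent enzymes that reduce aldehydes and ketones to alcohols. Of the human family, the 9 genes AKR1A1, AKR1B1, AKR1B10, AKR1C1, AKR1C2, AKR1C3, AKR1C4, AKR7A2, and AKR7A3 were described across the 12 arrays of the study, and the family was picked on the values of AKR1B10, which was far higher after depletion of β-catenin and lower after depletion of p300. The members were found through the RefSeq accession of each probe. Of the 9 genes, 8 had a probe under such an accession, with 12 probes in all, each on 1 feature, among 25398 probes that could be given a gene symbol and 43376 features that were no controls. AKR1C2 had none. Of the 12 probes, 11 passed the filter on signal in all 9 comparisons. The probe of AKR1C4 was not well above background on any of the 12 arrays, and AKR1C4 is given no change here.

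The study asked which coactivators the Wnt pathway needs to switch on its target genes. Ls174T is a human colorectal carcinoma line in which a mutation stabilizes β-catenin, so that the pathway is constitutively on, and HEK293T is a human embryonic kidney line in which it is intact and can be induced with Wnt3A. Cells of both lines were transfected with 15 nM siRNA for 72 h. Ls174T cells received si-control, si-b-catenin, si-MLLT10, si-BRG1, or si-P300, in their own medium. HEK293T cells received si-control and then control medium (CM) for 9 h, or si-control, si-MLLT10, si-DOT1L, si-BRG1, or si-P300 and then Wnt3A conditioned medium for 9 h. No HEK293T knockdown in control medium and no Ls174T knockdown of DOT1L was analysed here.

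Each condition was measured in 1 biological sample, so no test between conditions was possible and no p-values are given. β-catenin-depleted RNA was hybridized directly against si-control RNA on a pair of arrays with the dyes exchanged, which count as 1 replicate. The other 10 arrays each held 1 sample in Cy3 against a common human reference RNA in Cy5. A level is the log2 ratio of sample to reference RNA, and a change is the difference of a level to that of the si-control array, or the mean log2 ratio of the pair. The error given with a value is the error of the log ratio from the scanner program, combined over the arrays compared, and it leaves out the spread between cultures. A feature was called when it differed by more than 2-fold in Ls174T cells, or by more than 1.5-fold in HEK293T cells.

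The lines matched their labels on the measured markers of lists fixed for this purpose. All 9 probes of 5 intestinal epithelial genes were higher in si-control Ls174T than in HEK293T cells, by 0.44 to 10.58 on the log2 scale. Among these intestinal genes, CDX2 and MUC2 differed by less than 1. All 6 probes of 5 genes listed for HEK293T were lower in Ls174T cells. The lists held 11 and 6 genes, and CDH17, CDX1, CEACAM5, GPA33, KRT20, LGALS4, and PAX2 were not measured. The siRNA targets had a lower level in 16 of 17 probe comparisons, and the exception was 1 of 3 DOT1L probes (0.17, program error 0.30). The arrays lay on 5 slides. The Wnt3A si-control array, to which 5 of the HEK293T comparisons refer, was alone on its slide, so that slide and condition cannot be told apart in any of them. The reference RNA gives a measure of the technical spread of the Cy5 channel only. The Cy3 samples were dimmer than the reference for AKR1B10, AKR1C1, and AKR1C3, so it does not give the spread of their changes. Over the 10 reference arrays, the scaled Cy5 signal of the 11 member probes had an SD of 0.04 to 0.20 on the log2 scale with a median of 0.11, against 0.16 over all 33842 features well above background there.

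In the intestine, AKR1B10 is known as an enzyme of mature epithelial cells that reduces retinal and reactive lipid aldehydes. Its close relative AKR1B1, aldose reductase, converts glucose to sorbitol in the polyol pathway. The AKR1C enzymes are hydroxysteroid dehydrogenases, with AKR1C1 known for the inactivation of progesterone, AKR1C2 for that of dihydrotestosterone, AKR1C3 for the making of testosterone and prostaglandin F, and AKR1C4 for steroid and bile acid metabolism in the liver. AKR1A1 is the broad aldehyde reductase of most tissues, and AKR7A2 and AKR7A3 reduce aflatoxin aldehyde. AKR1B10 and the AKR1C genes are textbook targets of NRF2 (NFE2L2), the transcription factor of the oxidative stress response, which binds antioxidant response elements.

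The AKR1C genes lie side by side on chromosome 10 and resemble each other closely, and a probe named for one can take up cRNA of another. AKR1C1 is at chr10:4963415-4983283 and AKR1C3 at chr10:5048781-5107686 (GRCh38.p14, RefSeq). AKR1C2 lies between them, at chr10:4987775-5018000. The promoter windows of the 2 nearest genes and of AKR1C3 are shown because the probes of AKR1C1 and AKR1C3 were high together after β-catenin depletion, and that of AKR7A2 because its probe was close to 0 in that comparison. Each window runs from 250 bases before to 50 bases from a start listed for the gene, 5′ to 3′ on its strand. The windows were copied from a RefSeq promoter table of GRCh38.p14. Those of AKR1C2 and AKR1C3 shown here lie inside the gene spans given above, and not at the start of the span. Capitals mark matches on either strand to CTTTGA, the core of the TCF/LEF site through which β-catenin acts, or to TGACNNNGC, the core of the antioxidant response element.
AKR1C1, chr10:4963165-4963464, plus strand: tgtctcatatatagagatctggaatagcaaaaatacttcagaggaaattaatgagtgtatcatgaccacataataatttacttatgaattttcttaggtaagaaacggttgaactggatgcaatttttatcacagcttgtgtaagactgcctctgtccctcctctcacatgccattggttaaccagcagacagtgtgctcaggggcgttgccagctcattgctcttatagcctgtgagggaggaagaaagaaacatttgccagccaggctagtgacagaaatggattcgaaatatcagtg
AKR1C2, chr10:5003808-5004107, minus strand: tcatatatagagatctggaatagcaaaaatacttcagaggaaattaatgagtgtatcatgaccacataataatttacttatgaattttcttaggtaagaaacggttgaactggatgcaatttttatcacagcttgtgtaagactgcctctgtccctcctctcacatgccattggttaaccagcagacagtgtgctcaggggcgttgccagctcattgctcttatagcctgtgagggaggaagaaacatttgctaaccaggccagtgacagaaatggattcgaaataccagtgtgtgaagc
AKR1C3, chr10:5094164-5094463, plus strand: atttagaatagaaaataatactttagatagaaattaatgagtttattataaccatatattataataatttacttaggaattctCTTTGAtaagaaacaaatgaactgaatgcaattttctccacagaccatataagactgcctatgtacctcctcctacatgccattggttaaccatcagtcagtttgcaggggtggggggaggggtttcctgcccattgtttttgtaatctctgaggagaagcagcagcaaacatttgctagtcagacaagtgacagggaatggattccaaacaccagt
AKR7A2, chr1:19312097-19312396, minus strand: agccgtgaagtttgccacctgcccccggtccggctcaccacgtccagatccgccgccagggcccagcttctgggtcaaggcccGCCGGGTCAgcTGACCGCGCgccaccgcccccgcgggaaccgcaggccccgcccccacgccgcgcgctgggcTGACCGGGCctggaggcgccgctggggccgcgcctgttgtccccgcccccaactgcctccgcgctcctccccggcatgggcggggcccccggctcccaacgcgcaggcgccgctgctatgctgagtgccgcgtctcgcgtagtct

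The windows of AKR1C1 and AKR1C2 were near copies, with 288 of 292 aligned bases identical (98.6%). The AKR1C3 window shown aligned with that of AKR1C1 at 226 of 283 bases (79.9%). Neither motif was found in the AKR1C1 or AKR1C2 window. The AKR1C3 window shown held 1 match to CTTTGA. The other AKR1C3 window in the table, at chr10:5048531-5048830 and thus at the start of the gene span, held none. AKR7A2 held 3 matches to TGACNNNGC. Of 11 member windows, 2 held CTTTGA (AKR1C3 and AKR1C4) and 2 held TGACNNNGC (both of AKR7A2), and of all 35116 windows of the same length 12.9% and 13.3% did. AKR1B10 was not among the genes of the table. A match is a description of the letters in these windows only.

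Among the members that passed the filter, AKR1B10 had the widest range of levels within each line. These ranges include the si-P300 arrays, and p300 depletion is a contrast on which the gene was picked. On the A_24_P129341 probe its level against reference RNA was −2.21 in Ls174T si-control cells, −1.18 after si-MLLT10, −3.47 after si-BRG1, and −4.24 after si-P300. On the A_23_P93641 probe the same arrays gave −2.15, −1.14, −3.47, and −3.84. The order was the same on both probes, with si-MLLT10 above si-control and both of those above si-BRG1 and si-P300. The neighbours at the low end, si-P300 and si-BRG1, lay on 1 slide and differed by −0.78 (program error 0.59) and −0.36 (program error 0.56), which is less than 2 errors on either probe. In HEK293T cells the A_24_P129341 level was −4.35 in control medium, −4.54 with Wnt3A, −4.37 after si-MLLT10, −4.42 after si-DOT1L, −4.25 after si-BRG1, and −5.57 after si-P300. On the A_23_P93641 probe these arrays gave −4.48, −4.16, −4.41, −4.13, −4.66, and −5.23. The first 5 of these arrays thus stood between −4.66 and −4.13 over both probes, and the si-P300 array stood below all of them. In HEK293T cells the width of the AKR1B10 range thus rests on the si-P300 array.

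**Figure D1:**
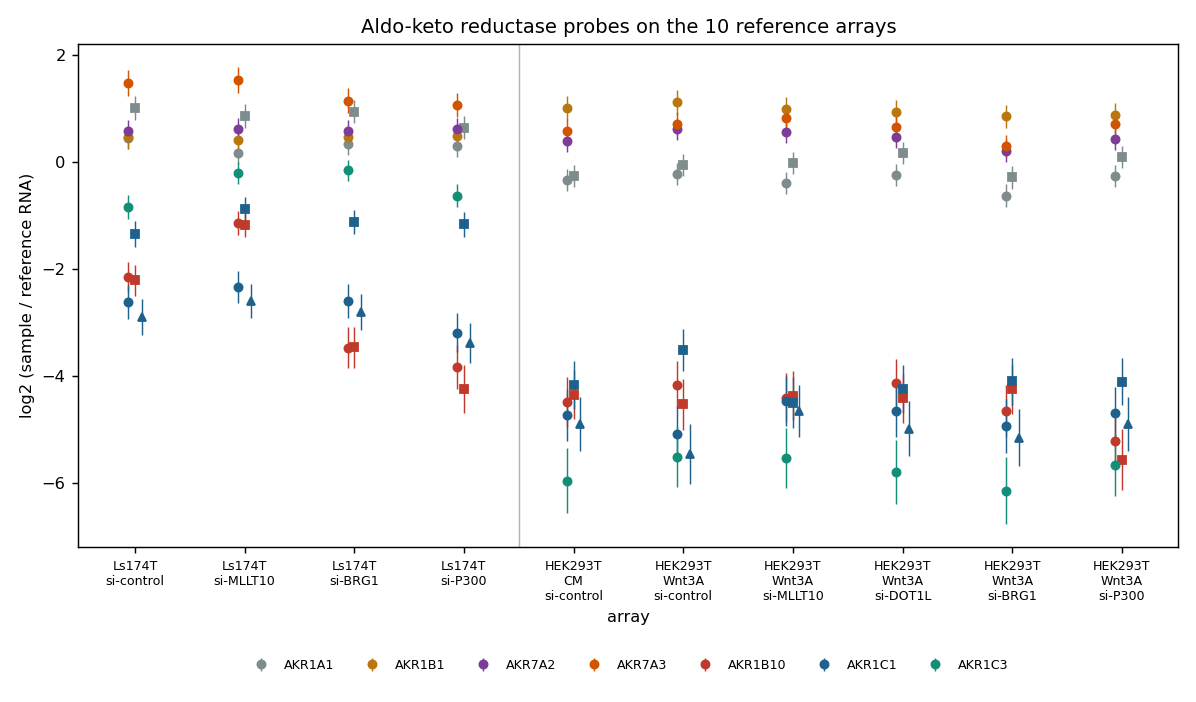
Levels of the 11 member probes that passed the filter, as log2 of sample over reference RNA (y axis), on the 10 reference arrays (x axis, 4 of Ls174T left of the line and 6 of HEK293T right of it). Colours are genes, marker shapes are the probes of 1 gene, and bars are 1 program error. AKR1B10 runs from −1.14 to −5.57, AKR1C3 separates the lines, and AKR1A1, AKR1B1, AKR7A2, and AKR7A3 stay between −0.63 and 1.53.

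These differences lay in the sample channel. The processed A_24_P129341 signal of the samples was 245 in Ls174T si-control, 501 after si-MLLT10, 92.8 after si-BRG1, and 50.8 after si-P300, while the reference RNA beside them gave 963 to 1135. In HEK293T cells it was 56.0 to 86.2 on 5 arrays and 28.3 on the si-P300 array, with the reference at 1298 to 1645. The HEK293T samples were dim, at 1.65 to 2.20 times the local background on both probes, and the Ls174T si-P300 sample was at 1.81 and 2.19 times. The program marked every one of these spots as well above background.

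**Figure D2:**
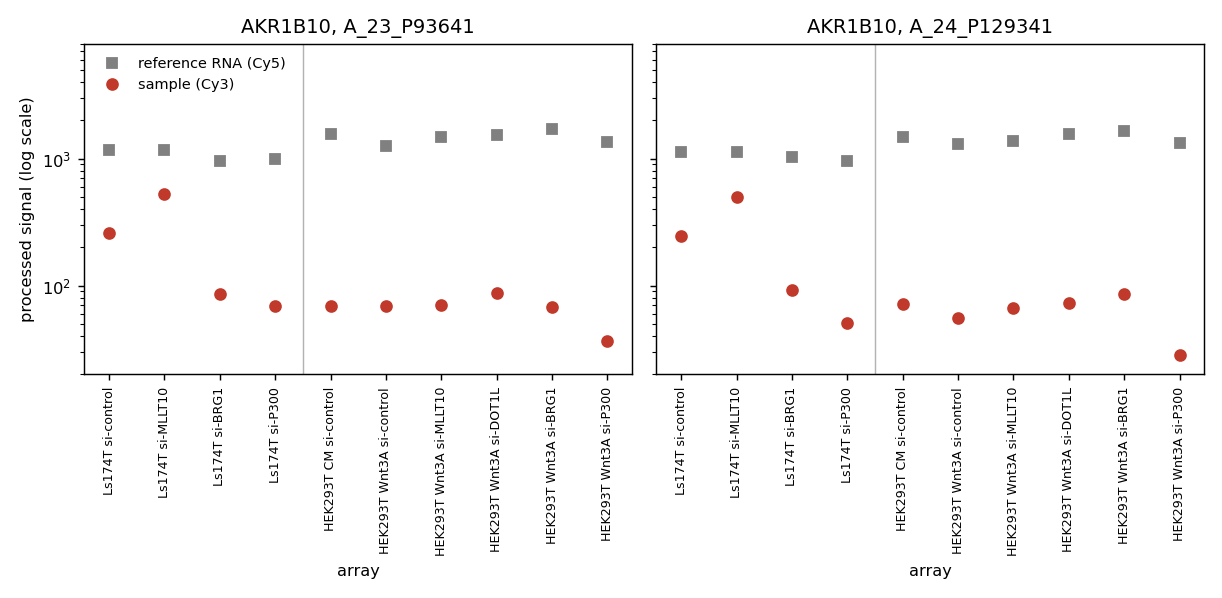
Processed signal of the 2 AKR1B10 probes (y axis, log scale) on the 10 reference arrays (x axis), with the sample in Cy3 (circles) and the reference RNA in Cy5 (squares). The reference stays between 951 and 1710, and the sample signal runs from 28.3 in HEK293T si-P300 to 531 in Ls174T si-MLLT10.

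After depletion of β-catenin, AKR1B10 had a higher level than in si-control cells by 5.23 (program error 0.38) and 5.14 (0.37) on its probes, which is 37.5-fold and 35.2-fold. The 2 arrays gave 5.20 and 5.26 for A_24_P129341 and 5.11 and 5.17 for A_23_P93641, each with a program error of 0.53 or 0.54. Only 2 of the 17706 features that passed the filter ranked above them. This is the contrast on which the gene was picked, and its values are a description.

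The AKR1C probes were high in the same contrast. AKR1C1 was at 2.70 and 2.61 on the 2 arrays for A_23_P257971, at 2.70 and 2.78 for A_24_P220947, and at 1.89 and 1.91 for A_24_P152968. The means were 2.66 (program error 0.23), 2.74 (0.23), and 1.90 (0.19), or 6.31-fold, 6.68-fold, and 3.74-fold. AKR1C3 was at 1.81 and 1.78, with a mean of 1.80 (program error 0.19), or 3.48-fold. Since AKR1C1 and AKR1C2 are near copies and no probe could be placed on AKR1C2, how much of the AKR1C1 signal was AKR1C2 cRNA was not tested.

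The other members differed little. AKR1B1 was at 0.65 (program error 0.15) and AKR7A3 at 0.55 (0.15), neither of them 2-fold. AKR1A1 was at 0.14 and 0.10 (program errors 0.14 and 0.15) on its probes, and AKR7A2 at −0.06 (0.12). The AKR7A2 spot was dimmer on the second array of the pair, with a sample signal of 858 against 8677 on the first, and its ratio there was 0.13 against −0.24. In all, 6 of the 11 member probes were higher by more than 2-fold and 0 were lower, where 4.24% of all features were higher and 1.36% lower. The median of the member probes was 1.80, beside −0.02 over all features. These counts come from the contrast that chose the family, and 5 of the 6 probes belong to only 2 genes, AKR1B10 and AKR1C1.

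**Figure D3:**
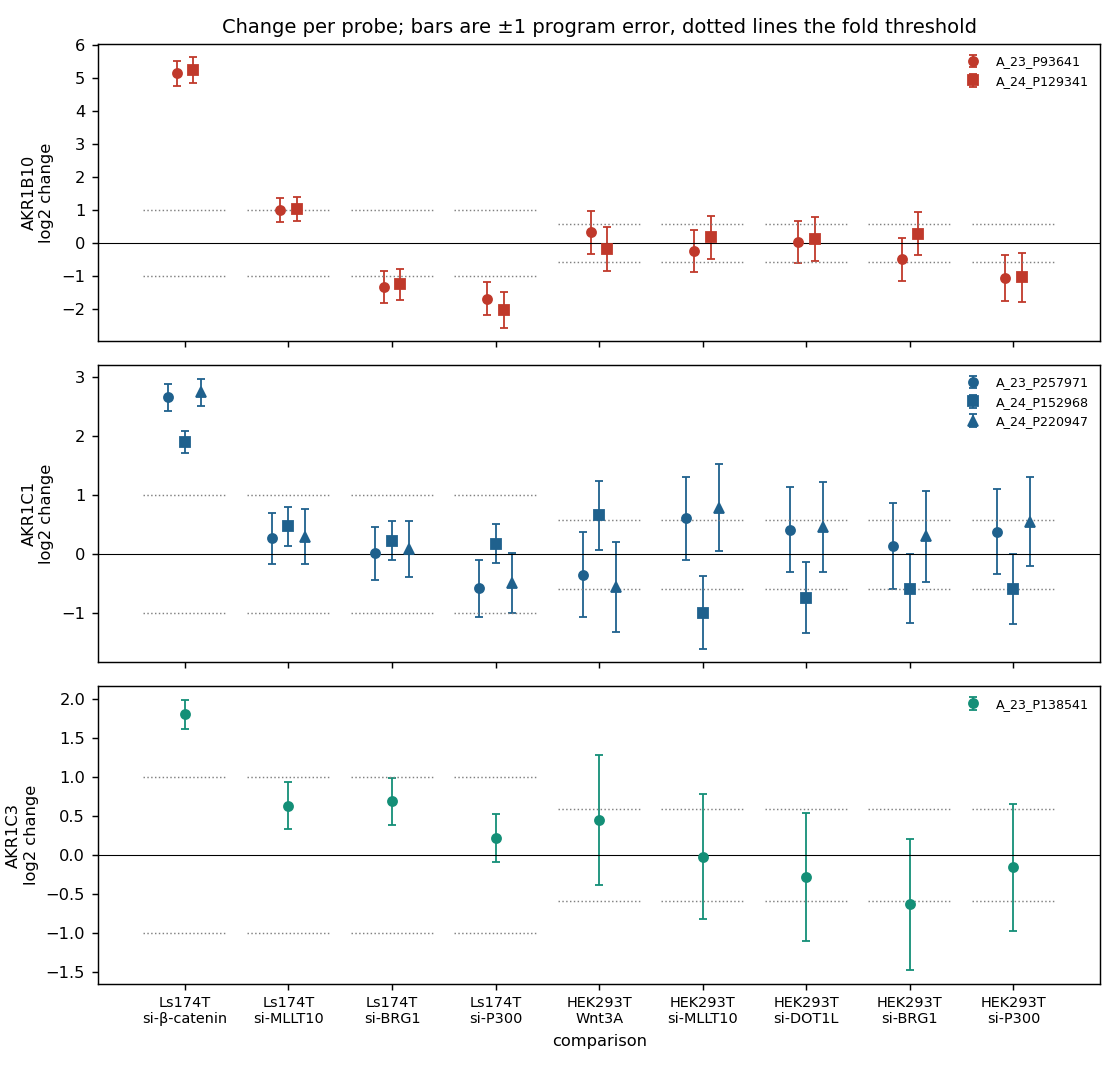
Log2 change (y axis) of each probe of AKR1B10, AKR1C1, and AKR1C3 in the 9 comparisons (x axis), with bars of 1 program error and dotted lines at the fold threshold of the line (2-fold in Ls174T, 1.5-fold in HEK293T). AKR1B10 is at 5.14 and 5.23 after β-catenin depletion and below the line after si-BRG1 and si-P300 in Ls174T cells, and the AKR1C1 probe drawn as squares is opposite in sign to the other 2 in all 5 HEK293T comparisons.

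The si-control side of this contrast was not the same on another array. Ls174T si-control RNA was labelled in Cy3 both on the first array of the pair and on the si-control reference array. The labels do not say whether both hold the same extract. These arrays lay on different slides, so that slide and extract cannot be told apart. With each channel scaled to its 75th percentile, the AKR1C1 signal was higher on the pair array by 2.27, 1.80, and 2.00 on its probes, that of AKR1C3 by 1.70, and that of AKR1B10 by 1.13 and 1.20. For AKR1A1, AKR1B1, AKR7A2, and AKR7A3 the difference was −0.39 to 0.42. Over all 24308 features well above background in Cy3 on both arrays, the median difference was 0.11. The 10th to 90th percentiles ran from −0.94 to 1.18, so that the 3 AKR1C1 probes, the AKR1C3 probe, and the AKR1B10 probe at 1.20 lay above that range. Measured against the si-control reference array, the signal of the β-catenin-depleted sample in Cy3 was higher by 6.63 for AKR1B10, 4.82 for AKR1C1, and 3.54 for AKR1C3. AKR7A2, whose spot was dim on the second array of the pair, was at −3.21, and in all 7 member probes were called higher and 1 lower. The direction was thus the same on either control for AKR1B10, AKR1C1, and AKR1C3, and the size was not.

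**Figure D4:**
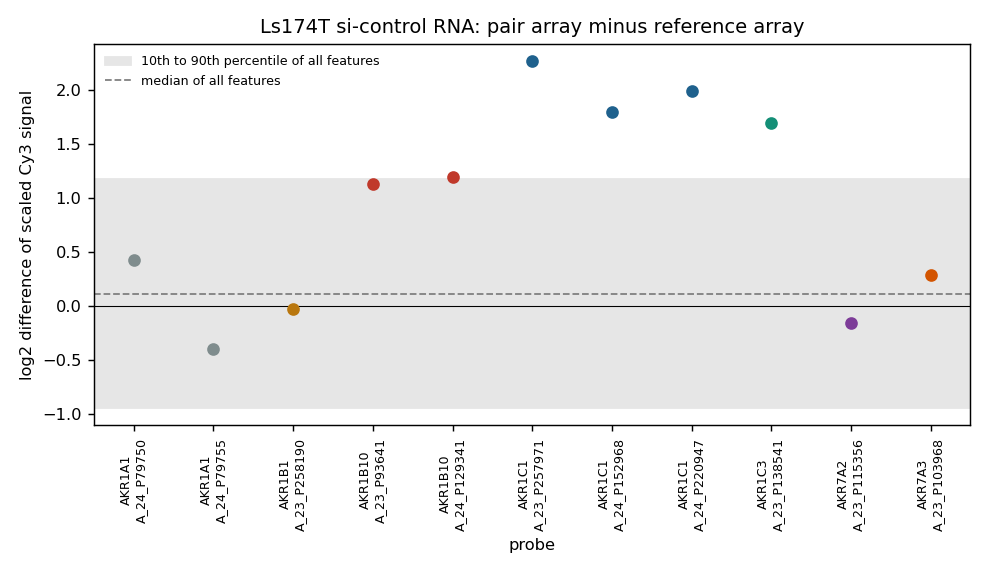
Difference in scaled Cy3 signal of Ls174T si-control RNA between the first array of the β-catenin pair and the si-control reference array (y axis, log2), for each of 11 member probes (x axis). The grey band is the 10th to 90th percentile of 24308 features (−0.94 to 1.18) and the dashed line their median (0.11). All 3 AKR1C1 probes, the AKR1C3 probe, and the AKR1B10 probe at 1.20 lie above the band.

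After depletion of MLLT10, AKR1B10 was higher in Ls174T cells than in si-control cells by 1.03 and 1.00 (program error 0.37 on both probes), or 2.05-fold and 2.01-fold. The probes ranked 189 and 206 from the highest of 27369 features. AKR1C3 was at 0.63 (program error 0.30), and the AKR1C1 probes were at 0.27, 0.30, and 0.47 (0.33 to 0.46), all short of 2-fold. AKR1A1 was at −0.28 and −0.16 (program errors 0.29 and 0.31), and AKR1B1, AKR7A2, and AKR7A3 were within 0.06 of 0. The 2 AKR1B10 probes were the only members called, against 0.753% of all features higher and 0.983% lower. The si-MLLT10 and si-control arrays lay on 1 slide. The call is marginal, since the mean of the AKR1B10 probes was 1.02 and became 0.87, short of 2-fold, with another background correction (normexp) and loess.

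After depletion of BRG1, the ATPase of the SWI/SNF remodeling complex, AKR1B10 differed in Ls174T cells by −1.25 and −1.33 (program error 0.48 on both probes), or 2.38-fold and 2.51-fold lower. AKR1C3 was opposite in sign, at 0.69 (program error 0.30), with levels of −0.85 on the si-control and −0.16 on the si-BRG1 array, and was not called. The AKR1C1 probes were at 0.02, 0.09, and 0.23 (program errors 0.33 to 0.47). AKR7A3 was at −0.32 (0.34), and AKR1A1, AKR1B1, and AKR7A2 were between −0.12 and 0.00. Again the 2 AKR1B10 probes were the only members called, against 3.86% of all features higher and 1.40% lower. The si-BRG1 and si-P300 arrays lay on another slide than the si-control array, so that slide and knockdown cannot be told apart. The mean of the AKR1B10 probes was −1.29, and became 0.69 with normexp and loess and −0.93 when background values marked as outliers were replaced first.

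After depletion of p300, a histone acetyltransferase, AKR1B10 differed in Ls174T cells by −2.03 (program error 0.53) and −1.69 (0.50), or 4.09-fold and 3.22-fold lower. This, too, is a contrast on which the gene was picked. The AKR1C1 probes A_23_P257971 and A_24_P220947 were at −0.58 and −0.49 (program errors 0.48 and 0.51) and the third, A_24_P152968, was at 0.18 (0.33). AKR7A3 was at −0.41 (0.33) and AKR1C3 at 0.21 (0.30). AKR1A1 was at −0.14 and −0.38, AKR1B1 at 0.03, and AKR7A2 at 0.04 (program errors 0.29 to 0.31). Only the 2 AKR1B10 probes were called, against 4.15% of all features higher and 1.76% lower. The mean of the AKR1B10 probes was −1.86, and became 0.44 with normexp and loess and −1.26 when background values marked as outliers were replaced first. The EP300 probes were at −0.60 and −1.31 in this comparison, the former not well above background. The 3 Ls174T knockdowns of MLLT10, BRG1, and p300 share 1 si-control array, so their values are not independent of each other.

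**Figure D5:**
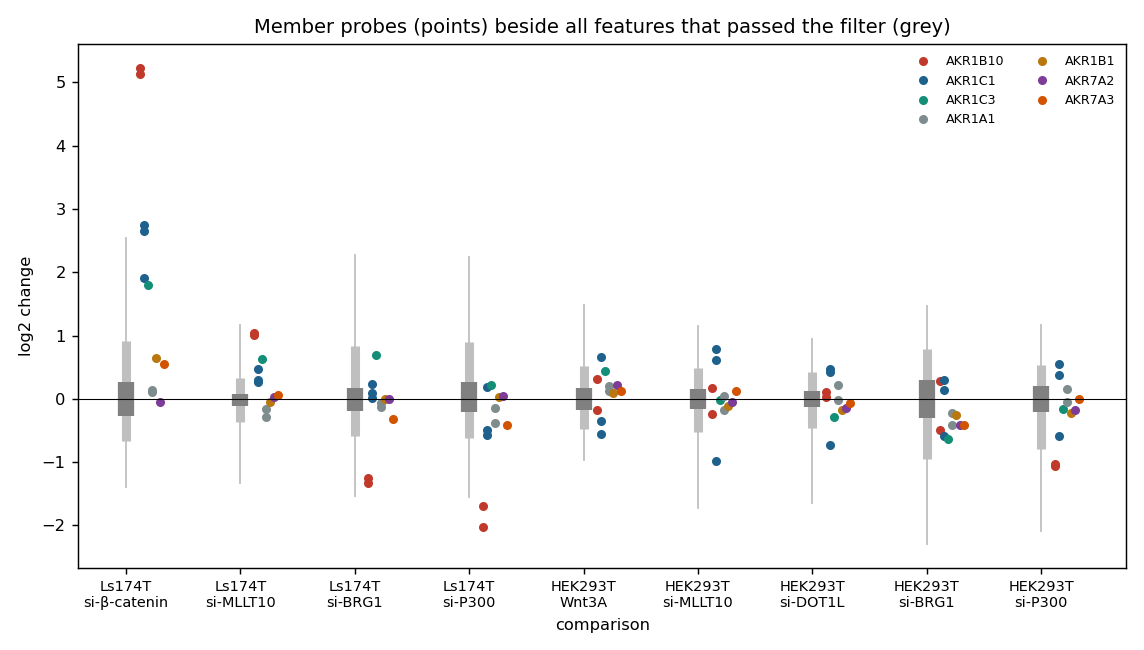
Log2 change (y axis) of the 11 member probes (points, coloured by gene) in each comparison (x axis), beside all features that passed the filter, drawn in grey as the 25th to 75th percentiles (dark), the 5th to 95th percentiles (pale), and a thin line that leaves out the outermost 0.5% at each end. AKR1B10 and the AKR1C1 probes at 2.66 and 2.74 stand outside the line after β-catenin depletion, AKR1B10 does so on the low side after si-P300 in Ls174T cells, and in HEK293T cells all member probes are inside it.

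In HEK293T cells with Wnt3A, 10 of the 11 member probes were within 1.5-fold of their level in control medium. AKR1B10 was at −0.18 and 0.32 (program errors 0.66 and 0.65) on its probes, and AKR1C3 at 0.44 (0.83). AKR1A1, AKR1B1, AKR7A2, and AKR7A3 were between 0.10 and 0.22 (program errors 0.29 to 0.32). The 3 AKR1C1 probes disagreed. A_24_P152968 was at 0.66 (program error 0.59), past 1.5-fold, while A_23_P257971 and A_24_P220947 were at −0.35 (0.72) and −0.55 (0.75). This was the only member probe called, against 4.04% of all features higher and 2.68% lower, and 0 members were called when the mean of the 4 knockdown arrays in Wnt3A medium took the place of the Wnt3A si-control array. These values depend on the background: with normexp and loess 6 member probes were called, all lower, with the means of AKR1B10 at −2.44, AKR1C1 at −1.90, and AKR1C3 at −2.43, and when background values marked as outliers were replaced first these were 0.29, 0.06, and 0.17.

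The opposite signs of the AKR1C1 probes recurred in every HEK293T comparison, and all of these share the Wnt3A si-control array. The level of A_24_P152968 was −3.52 on that array and −4.50 to −4.10 on the other 5 HEK293T arrays. The levels of A_23_P257971 and A_24_P220947 were −5.08 and −5.46 on it, and −4.93 to −4.47 and −5.15 to −4.67 on the others. All 3 probes thus stood outside the range of the other 5 arrays on the Wnt3A si-control array, the first above it and the other 2 below. The A_24_P152968 samples had 1.42 to 1.86 times their local background in HEK293T cells and the other probes 3.22 to 7.48 times. In Ls174T cells the signs of all 3 probes agreed in 3 of the 4 comparisons, with si-P300 as the exception. On the slide that held the control medium array together with si-MLLT10 and si-DOT1L, in Wnt3A medium, the 3 probes were between −0.33 and 0.26 after si-MLLT10 and between −0.09 and 0.07 after si-DOT1L against control medium (program errors 0.63 to 0.72).

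Against the Wnt3A si-control array, depletion of MLLT10 gave AKR1C1 values of 0.61 (program error 0.70), 0.79 (0.74), and −0.99 (0.61), and these 3 probes were the members called (2 higher and 1 lower), against 3.38% of all features higher and 4.05% lower. None of the 3 was called with normexp and loess, with or without replaced background values, at the 2-fold threshold, or with the other knockdowns as control. The A_24_P152968 sample was not well above background on the si-MLLT10 array. On background-corrected and normalized single channels its signal was 1.13-fold higher on the si-control array, a value from 1 spot on each array. AKR1B10 was at 0.17 and −0.24 (0.66 and 0.64). Depletion of DOT1L, the H3K79 methyltransferase that MLLT10 recruits, gave AKR1C1 values of 0.42, 0.47, and −0.73 (0.71, 0.76, and 0.60) and AKR1B10 values of 0.11 and 0.03 (0.66 and 0.62). Only the AKR1C1 probe A_24_P152968 was called, on the low side, against 2.09% of all features higher and 3.68% lower, and it was not called at the 2-fold threshold. With the sample channel alone, or with the other knockdowns as control, 1 member probe was called higher and 0 lower. Between si-DOT1L and si-MLLT10, which lay on 1 slide, all 11 member probes differed by less than their program error.

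After depletion of BRG1 in HEK293T cells, AKR1C3 was at −0.63 (program error 0.84) and was the only probe called, against 10.2% of all features higher and 12% lower. AKR7A2 was at −0.42 (0.29), AKR7A3 at −0.41 (0.30), AKR1A1 at −0.41 and −0.23 (0.29), and AKR1B1 at −0.26 (0.32). AKR1B10 was at 0.28 and −0.50 (0.65 and 0.66). The AKR1C1 probe A_24_P152968 was at −0.58 (0.59), just inside the 1.5-fold line, and the other AKR1C1 probes were at 0.14 and 0.30. With normexp and loess 6 member probes were called, all higher, with AKR1C3 at 1.29 and the means of AKR1B10 and AKR1C1 at 1.43 and 1.16, and 0 were called when background values marked as outliers were replaced first.

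After depletion of p300 in HEK293T cells, AKR1B10 differed by −1.03 (program error 0.74) and −1.06 (0.70), or 2.04-fold and 2.09-fold lower, which is less than 2 errors on either probe. The rule by which AKR1B10 was picked names the p300 knockdown without a cell line. On A_24_P129341 the lowest of the other 5 HEK293T arrays was the si-control array itself, and on A_23_P93641 it was the si-BRG1 array. Against the si-BRG1 array, which lay on the same slide, si-P300 was at −1.31 (0.73) on A_24_P129341 and −0.57 (0.72) on A_23_P93641. The mean of the AKR1B10 probes was −1.05, and became −0.44, inside the 1.5-fold line, with normexp and loess. AKR1C1 A_24_P152968 was at −0.59 (0.59) and the other AKR1C1 probes at 0.38 and 0.55. AKR1C3 was at −0.16 (0.81), and AKR1A1, AKR1B1, AKR7A2, and AKR7A3 were between −0.23 and 0.15. The 3 probes called were all lower, against 4% of all features higher and 8.26% lower, and 0 were called with normexp and loess.

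Between the lines, the AKR1C and AKR1B10 probes were higher in Ls174T si-control cells than in HEK293T si-control cells in control medium. AKR1C3 differed by 5.11 (program error 0.64), or 34.5-fold, with −0.85 against −5.96. AKR1B10 differed by 2.14 and 2.34 (0.54 and 0.55), and AKR1C1 by 2.00, 2.11, and 2.82 (0.51 to 0.61). AKR1A1 differed by 0.79 and 1.28 and AKR7A3 by 0.89 (0.29 to 0.32). AKR1B1 was the only measured member that was lower in Ls174T cells, at −0.56 (0.31), and AKR7A2 was at 0.18 (0.30). These si-control arrays lay on different slides. On the 1 slide that held both lines, the AKR1C3 level was −0.85 and −0.22 in Ls174T si-control and si-MLLT10 cells and −6.15 and −5.67 in HEK293T si-BRG1 and si-P300 cells. Over the 6 HEK293T arrays the AKR1C3 level ran from −6.15 to −5.51, without overlap with the −0.85 to −0.16 of the 4 Ls174T arrays. In RNA of whole cultures, fewer cells that express a gene and less RNA per cell cannot be told apart.

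The genes nearest to AKR1B10 over the 4 Ls174T changes, by Euclidean distance among 9323 gene symbols, were FABP1 (0.45), IL1R2 (0.99), MALL (1.30), TFF2 (1.32), and VILL (1.83). FABP1, the fatty acid-binding protein of enterocytes and liver, was at 5.07 after si-b-catenin, 0.67 after si-MLLT10, −1.03 after si-BRG1, and −1.88 after si-P300, where the mean of the AKR1B10 probes was 5.18, 1.02, −1.29, and −1.86. IL1R2, the decoy receptor of interleukin-1, was at 5.27, 0.42, −0.61, and −2.24. The genes nearest to AKR1C1 were MTMR11 (0.22), SBSPON (0.28), ZG16B (0.33), UGT2B17 (0.38), and SEMA3B (0.38). UGT2B17, which glucuronidates androgens, was at 2.25, 0.09, −0.03, and −0.46, and the mean of the AKR1C1 probes at 2.43, 0.35, 0.11, and −0.30. The distance is dominated by the β-catenin comparison, and the other 3 share a control array. AKR1B10 was picked on its si-b-catenin and si-P300 changes, so its distances are a description. The si-BRG1 and si-P300 arrays lay on another slide than the si-control array. With normexp and loess the mean of the AKR1B10 probes became 0.69 after si-BRG1 and 0.44 after si-P300.

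The NRF2 pathway was described by a list of 31 genes. After β-catenin depletion 26 genes passed the filter with 47 features, of which 4 were higher and 1 lower by more than 2-fold (10.6%, beside 5.60% of all features), and their median was 0.34. The higher ones were ABCC3, an export pump for conjugated bile salts, at 3.41 (program error 0.20) in spots not all well above background, UGT1A6, a glucuronosyltransferase, at 2.05 and 2.17 (0.20), and KEAP1, which holds NRF2 in check, at 1.34 (0.20). CBR3, a carbonyl reductase, was at −1.03 (0.21). After si-P300 in Ls174T cells 4 of 53 features were lower and 0 higher (7.55%, beside 5.90%), namely those of GPX2 at −1.95 (0.38), UGT1A6 at −1.72 and −1.41 (0.43 and 0.40), and SLC7A11 at −1.16 (0.35). After si-MLLT10 and after si-BRG1 0 of 53 features were past 2-fold. UGT1A6 was thus on the same side as AKR1B10 after si-b-catenin and si-P300, the contrasts on which AKR1B10 was picked. It was not past 2-fold after si-MLLT10 or si-BRG1, where AKR1B10 was.

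In HEK293T cells HMOX1, heme oxygenase, entered the NRF2 counts with 8 spots of 1 probe. With Wnt3A 9 of 51 features were higher (17.6%, beside 6.72% of all), and 8 of them were HMOX1 spots at 0.81 to 0.85 (program error 0.30) with EPHX1 at 0.75. The same 8 spots were lower after si-MLLT10, at −0.79 to −0.70, and after si-P300, at −0.77 to −0.69, and all of these values share the Wnt3A si-control array. After si-MLLT10 9 of 51 features were lower in all and 0 higher (17.6%, beside 7.43%), and after si-P300 10 were lower and 1 higher (21.6%, beside 12.3%). The lowest feature in both was UGT1A6, on 1 of its 2 probes, at −1.14 (0.43) after si-MLLT10 and −0.94 (0.42) after si-P300. After si-BRG1 7 features were lower and 1 higher (15.7%, beside 22.2%), with GPX2 at −1.002 (0.45), PGD at −0.88 (0.30), and PTGR1 at −0.86 (0.75) the lowest. After si-DOT1L 1 was lower (1.96%, beside 5.77%), ABCC2 at −0.63 (0.68).

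Among the 29 genes listed for aldehyde and retinoid metabolism, the substrates of AKR1B10, 21 features passed the filter in the β-catenin pair, and 2 were higher and 4 lower (28.6%, beside 5.60% of all). ADH1C, an alcohol dehydrogenase, was at 1.69 (program error 0.20) and DHRS3, a retinal reductase, at 1.62 (0.18). ALDH1B1, a mitochondrial aldehyde dehydrogenase, was at −1.20 and −1.19 (0.16) on both of its probes, ADH5 at −1.17 (0.17), and CYP26B1, which degrades retinoic acid, at −1.80 (0.23) in spots not all well above background. After si-P300 in Ls174T cells 5 of 32 features were higher and 0 lower (15.6%, beside 5.90%), with ALDH1A3 at 1.22 (0.32) and CYP26B1 at 1.20 (0.38) the ones well above background, and after si-BRG1 3 of 31 were higher (9.68%, beside 5.26%), none of them well above background. After si-MLLT10 0 of 31 were past 2-fold. In HEK293T cells 2 of 32 features were higher with Wnt3A (6.25%, beside 6.72%). After si-MLLT10 2 of 31 were lower (6.45%, beside 7.43%), and after si-DOT1L 1 of 32 (3.12%, beside 5.77%). After si-BRG1 6 of 31 were lower and 2 higher (25.8%, beside 22.2%), and after si-P300 5 of 29 were lower (17.2%, beside 12.3%). Lowest among those well above background were ALDH1A1 at −1.07 (0.70) and RXRA at −1.04 (0.32) after si-BRG1, and ALDH1A2 at −0.93 (0.31) and DHRS3 at −0.92 (0.36) after si-P300.

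Of the 25 genes listed for steroid and prostaglandin metabolism, the pathways of the AKR1C enzymes, 1 feature of 28 was past 2-fold after β-catenin depletion (3.57%, beside 5.60%). This was HSD17B2, which inactivates estradiol and testosterone, at 3.21 (program error 0.39), in spots not all well above background. After si-P300 in Ls174T cells 3 of 45 features were higher and 7 lower (22.2%, beside 5.90%), and 6 of the lower ones were spots of 1 PPARG probe at −1.11 to −1.01 (0.45), of 10 that passed. The remaining lower feature and 2 of the higher ones were spots of 1 PTGS2 probe, in both directions and none well above background. After si-MLLT10 1 of 46 was higher (2.17%, beside 1.74%). After si-BRG1 6 of 46 were higher (13.0%, beside 5.26%), all spots of the prostaglandin synthase PTGS2 and none well above background. In HEK293T cells si-BRG1 gave 9 higher and 1 lower of 41 (24.4%, beside 22.2%), of which 7 were PTGS2 spots at 0.67 to 1.44. In the other HEK293T comparisons the share past 1.5-fold was 7.14% with Wnt3A (beside 6.72% of all features), 2.33% after si-MLLT10 (beside 7.43%), 0% after si-DOT1L (beside 5.77%), and 4.65% after si-P300 (beside 12.3%).

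Of the 6 genes listed beside AKR1B1 for polyol and glucose metabolism, 0 of 8 features were past 2-fold after β-catenin depletion, where AKR1B1 itself was at 0.65. HK2, a hexokinase, had 1 of its 2 features called lower after si-BRG1 in each line, and not the same one. The called feature was at −1.18 (program error 0.31) in Ls174T and −0.82 (0.34) in HEK293T cells, where SLC5A3 was at −0.74 (0.32) and HK1 at −0.59 (0.29). These were 1 of 9 features in Ls174T (11.1%, beside 5.26%) and 3 of 9 in HEK293T cells (33.3%, beside 22.2%). SORD, which follows AKR1B1 in the polyol pathway, had 1 of its 3 features past 1.5-fold after si-MLLT10 in HEK293T cells, at 0.61 (0.30), the only one of 9 features (11.1%, beside 7.43%). Of the 8 other family genes listed, only KCNAB2, a potassium channel subunit, passed the filter, with 1 of its 2 features past 1.5-fold after si-P300 in HEK293T cells, at −0.80 (0.62).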

How the data were processed

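Total RNA of 11 conditions was measured on 12 two-colour Agilent whole human genome arrays, with 1 biological replicate per condition. The authors scanned the arrays and extracted the spots with Agilent Feature Extraction (version 8.5.1.1 in the submitters' processing notes and 10.5.1.1 in the file headers), and deposited for each spot the processed signal intensity of both channels, already background-subtracted and dye-normalized, and a log10 ratio with its error. A deposited series table holds the same log10 ratios, except that their sign is turned for the second array of the β-catenin pair. Its signs were matched to the spot values before use.

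Here the log10 ratios were turned to sample over reference and converted to log2. Control spots and spots marked as outliers were left out. A feature was compared when its median signal was over 2 times the local background in either channel on every array compared, after the study's methods, and was called past the fold that the methods set for each line (2 for Ls174T, 1.5 for HEK293T). Probes were named through their RefSeq accessions. With 1 replicate no test was made, and the number of arrays limits the precision.

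The members and the gene lists were chosen with earlier results of these data known. Beyond the members, the text names the genes nearest to AKR1B10 and AKR1C1 by Euclidean distance, and genes of the fixed lists past the threshold, starting from the largest changes. Alternatives were normexp background correction (offset 50) with loess in limma 3.58.1 under R 4.3.3, with and without replacing background values marked as outliers, the sample channel alone, other filters and thresholds, the other knockdowns as control, and the deposited series table. Scripts ran in Python 3.11.15 with pandas 2.3.3 and numpy 2.4.6, promoters were aligned with Biopython 1.88, and the calculation was tested on simulated data. Probe sequences were not used here.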

Additional observations from a re-analysis of the deposited data

How the results depend on the processing

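No paired analysis was possible because each condition had 1 biological replicate. Over the alternatives run, 62 of 91 counts of members called stayed within 1.5 times their value and 29 did not. For AKR1B10, the mean of its probes moved by less than its error in 68 of 77 values, and for the other members in 470 of 491. For AKR1B10 the deposited series table, no filter on signal, the filter on well above background, and keeping outlier-marked spots could not change the value. The shares above thus include agreements that were fixed in advance. Normexp with loess turned AKR1B10 in Ls174T cells to 0.69 after si-BRG1 and 0.44 after si-P300, and AKR1C3 to 1.29 after si-BRG1 in HEK293T cells. With background values marked as outliers replaced before normexp, AKR1B10 was at −0.93 and −1.26, and the construction of these settings differs only in those background values. AKR1B10 also moved after β-catenin depletion (4.73 with normexp and loess, 4.75 with replaced background as well, 6.63 with the sample channel alone), after si-MLLT10 in Ls174T cells (2.59 with the other knockdowns as control), and in HEK293T cells with Wnt3A (−2.44) and after si-BRG1 (1.43), both with normexp and loess. Leaving out either array of the β-catenin pair gave 5.15 to 5.21.

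Normexp with loess gave 0 members called after si-MLLT10, si-BRG1, and si-P300 in Ls174T cells and after si-MLLT10 and si-P300 in HEK293T cells, but 6 with Wnt3A (all lower) and 6 after si-BRG1 (all higher) in HEK293T cells. With replaced background as well 0 were called after si-MLLT10 and si-BRG1 in Ls174T cells and after si-MLLT10, si-BRG1, and si-P300 in HEK293T cells. A filter on both channels gave 1 after si-P300 in Ls174T cells, and 0 with Wnt3A, si-DOT1L, and si-P300 in HEK293T cells. Without a filter 2 were called with Wnt3A, si-DOT1L, and si-BRG1 in HEK293T cells. The sample channel alone gave 7 higher and 1 lower after β-catenin depletion, the latter AKR7A2 at −3.21, and 2 with Wnt3A and 2 after si-BRG1 there. The other line's threshold gave 0 with Wnt3A, si-MLLT10, si-DOT1L, and si-BRG1 in HEK293T cells, and the other knockdowns as control gave 0 after si-BRG1 in Ls174T cells and after si-MLLT10 and si-BRG1 in HEK293T cells. The mean of the Wnt3A knockdown arrays, an alternative chosen after seeing the data, gave 0 with Wnt3A. The cause of these differences was not tested. AKR1C2 and AKR1C4 gave no value, nor did AKR1B10 in HEK293T cells under the filter on both channels.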
